A study of Hydra oligactis with 61 samples.

Results

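A set of 31 transcripts of *Hydra oligactis* stood higher at the aboral wound than in fresh aboral tissue 48 hours post amputation (hpa), without standing higher at the oral wound at the same hour. They were chosen by their mean CPM (a transcript's counts scaled to a common library total) from the 23396 transcripts in the count table. On the scale log2(1 + mean CPM), a member had to exceed its 0 hpa level by 0.7 or more at the aboral wound and by less than 0.3 at the oral wound, both against the 0 hpa libraries of batch 1. Of the 54 transcripts that met both limits, 23 were set aside because they were higher in the uninjured foot by 2 or more than in both the 0 hpa aboral tissue and the head. The values of the 48 hpa libraries, the 0 hpa libraries of batch 1, the foot and the head therefore chose the members, and are given below as a description with no test.

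When *Hydra* is cut across, the upper piece closes an aboral wound from which a foot can regrow, and the lower piece closes an oral wound from which a head regrows. Canonical Wnt signalling, which acts through β-catenin and is restrained by the kinase GSK-3, patterns the oral end of the polyp. Injury also switches it on in *Hydra vulgaris*. In *H. oligactis* the study reports that Wnt genes respond to injury weakly or not at all by comparison. Regrowth needs the wound to be sealed, the mesoglea (the extracellular matrix between both epithelial layers) to be rebuilt, and epithelial cells to take up the positional identity of the missing end.

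The libraries are poly(A) RNA-seq of strain Innsbruck 12, each from 30 tissue segments of bisected or uninjured polyps. Aboral tips treated with alsterpaullone (ALP, a GSK-3 inhibitor that activates Wnt signalling) at 5 µM for 3 h after the cut gave 3 libraries per time for 3, 12 and 24 hpa, plus 4 for 48 hpa. Foot-regenerating (FR, aboral) and head-regenerating (HR, oral) tips of control animals, which received DMSO in place of ALP before the wash, gave 7 libraries a wound at 0 hpa and 3 a wound at every later time, and homeostatic foot (Foot) and head (Head), also labelled DMSO, gave 5 apiece. The sources state different DMSO concentrations for the controls at 3, 12 and 48 hpa. The labels place 4 FR and 4 HR libraries at 0 hpa in batch 1 with all libraries at 3, 12 and 48 hpa, and 3 of each at 0 hpa in batch 2 with all libraries at 24 hpa. Foot regrowth often fails in this species, and the labels do not separate FR or ALP tips by outcome. The Methods call the libraries biological replicates of 30 animals, but neither they nor the labels give the culture or day of each library, so a p-value measures the spread between these libraries. Depth was 14.55 to 26.11 M (mega) counts per library. All 8 foot genes that the study names were higher in every Foot than in every Head library, and 7 of its 8 head organizer genes were higher in every Head library. In bulk tissue, fewer cells of a type and less RNA per cell cannot be told apart.

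Membership was sensitive to single libraries. Leaving out each of the 14 libraries behind the 48 hpa limits in turn gave 28 to 47 members, with the 47 reached without FR replicate 4 at 0 hpa (30 of them shared), and 11 transcripts stayed members in every case. With the 0 hpa libraries of batch 2 in place of those of batch 1, which was tried after the values were seen, 42 transcripts met the rule and 17 of them were among the 31. Just inside the aboral limit stood R034739c0g1_i01, R037069c2g2_i01 and R030174c0g1_i02 with rises of 0.70 on the scale of the rule. Just outside stood R033478c0g1_i02 (0.70, listed as Krueppel-like factor 5), R031921c0g2_i01 (0.69, listed as the sphingolipid desaturase DES1) and R036855c0g2_i01 (0.69). At the oral limit the nearest member was R035902c0g1_i05 at 0.29, and the nearest transcript left out was R020928c0g1_i01 at 0.33.

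The 0 hpa libraries of the second batch were not independent of those in the rule. Each of the 6 deviated from its group mean together with at least 1 library of batch 1, the closest with a correlation of 0.187 to 0.533 over 13804 transcripts and the next closest with -0.03 to 0.221 (a description across transcripts, which are not replicates). Whether these pairs share RNA was not tested. Comparisons against 0 hpa are given below as counts and values, and nothing is read from them about the members. The comparisons of FR with HR at 3, 12 and 24 hpa, and of ALP with FR at 3, 12 and 24 hpa, used no library of the rule.

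At 48 hpa the mean level of 30 members in FR tips was 1.64 to 4.69 times that of the 0 hpa FR tissue, with a median of 1.92. In HR tips the same ratio was 0.303 to 1.31, with a median of 1.05. The exception is a metalloproteinase transcript with no count at 0 hpa. All FR libraries at 48 hpa lay above all FR libraries of batch 1 at 0 hpa for 26 members. They lay above all HR libraries at 48 hpa for 27 members. These libraries chose the members, and the share of all transcripts so separated was not computed. The mean level was highest at 48 hpa in the FR series for 23 members, at 24 hpa for 4, at 12 hpa for 2 and at 3 hpa for 2. In the HR series the highest mean fell at 24 hpa for 14 members, at 12 hpa for 9, at 3 hpa for 6 and at 48 hpa for 2. The words late and aboral thus describe the 48 hpa samples alone. Most members also stood above their starting level early, the mean at 3 hpa being above that at 0 hpa of batch 1 for 28 members in FR tips and for 27 in HR tips.

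**Figure D1:**
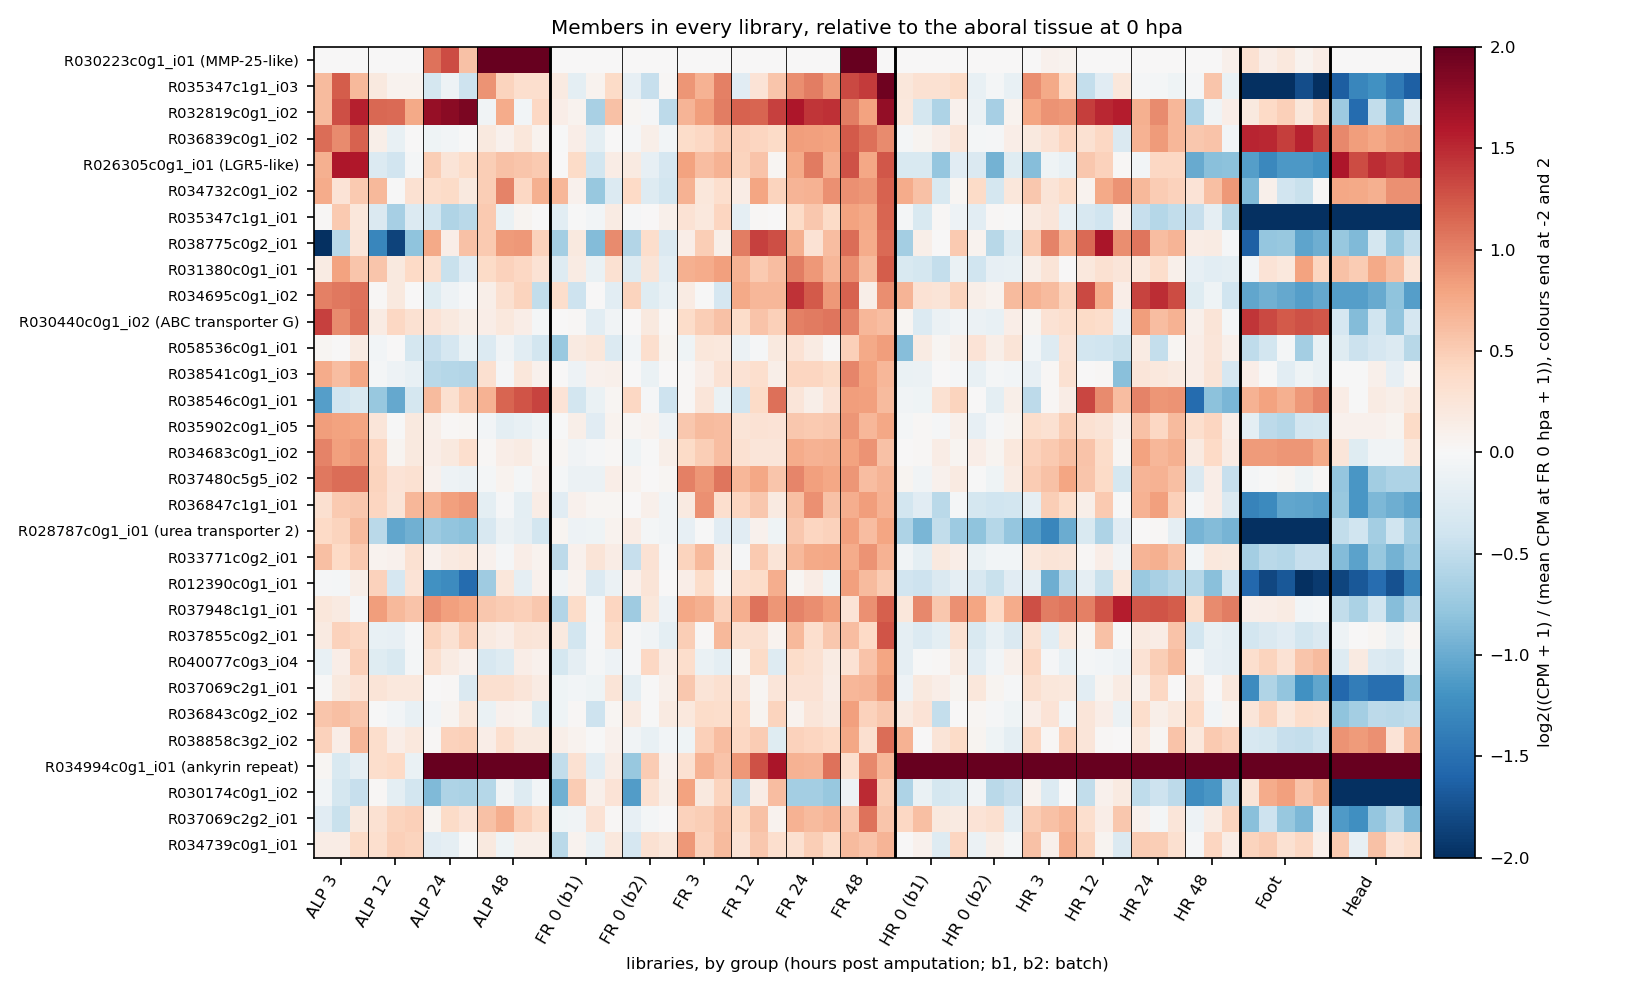
Each row is 1 of the 31 members and each column 1 of the 61 libraries, in blocks of ALP, FR, HR, Foot and Head. Colours give log2 of CPM + 1 over the mean at FR 0 hpa plus 1. The FR 48 block is red in nearly every row, the FR 24 and HR 24 blocks are red in most rows, and the row of R034994c0g1_i01 is saturated in all HR, Foot and Head libraries and in ALP at 24 and 48 hpa.

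Only 5 members have a protein name, a best match in other species printed in the study's annotation tables, and the other 26 are given by their identifier. Of these 5, 2 are transporters. R028787c0g1_i01 is listed as urea transporter 2, which in mammals lets urea cross kidney epithelium. It had 58.4, 66.4 and 67.8 CPM in FR tips at 48 hpa, against 35.3 to 39.8 CPM in the 4 FR libraries of batch 1 at 0 hpa. In HR tips it had 19.4, 19.4 and 20.3 CPM at 48 hpa, against 19.6 to 26.7 CPM at 0 hpa. The groups were separate at the aboral wound, and the transcript also started higher there. The level was low in the foot, at 4.30 to 5.34 CPM, and 23.2 to 28.6 CPM in the head.

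The other transporter, R030440c0g1_i02, is listed as ABC transporter G family member 14, a plant name for a family of lipid and hormone exporters. It reached 31.7, 32.9 and 41.6 CPM in FR tips at 48 hpa, against 17.4 to 20.7 CPM at 0 hpa. Its FR level was higher still at 24 hpa (41.8, 43.0 and 43.6 CPM), and HR tips had 31.8, 33.6 and 37.0 CPM at that time, so the oral wound carried it as well. The foot had more than any regenerating FR tip, 49.0 to 56.2 CPM, and the head 10.7 to 15.9 CPM.

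R026305c0g1_i01 matches a leucine-rich repeat-containing G-protein coupled receptor, in mammals a receptor for R-spondins that strengthens Wnt signalling. It had 3.21, 4.81 and 4.93 CPM in FR tips at 48 hpa, against 0.907 to 2.18 CPM at 0 hpa. HR tips had 0.219, 0.373 and 0.394 CPM at 48 hpa, against 0.439 to 1.10 CPM at 0 hpa. It was lower in the HR tips at 48 hpa than in the 4 HR libraries of batch 1 at 0 hpa, while 1 HR library of batch 2 had 0.268 CPM. By comparison, the uninjured head had 5.05 to 6.52 CPM and the foot at most 0.143 CPM.

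R034994c0g1_i01 carries ankyrin repeats by both of its matches, which disagree otherwise: 1 table gives a Notch-regulated ankyrin repeat protein and another field a regulatory subunit of protein phosphatase 1. It met the rule from a low level, with 3.10, 4.17 and 5.36 CPM in FR tips at 48 hpa, against 1.33 to 3.00 CPM at 0 hpa. HR tips had far more at both times, 16.5, 20.9 and 21.9 CPM at 48 hpa, against 18.9 to 32.9 CPM at 0 hpa. The foot had 89.7 to 105 CPM and the head 34.1 to 40.4 CPM, so its name as a transcript of the aboral wound alone describes a change and not a level.

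R030223c0g1_i01 is listed as matrix metalloproteinase-25, a membrane-bound enzyme of the family that cleaves extracellular matrix. It had no count in any FR library at 0, 3, 12 or 24 hpa, and 0, 3.48 and 4.73 CPM at 48 hpa. With 1 of 3 libraries at 0 the FR groups overlap, and the pooled level at 48 hpa was at least 59.6 times the level of 3 counts over the batch 1 libraries at 0 hpa. HR tips held 2 counts in all at 48 hpa, the foot 13 in 5 libraries and the head none. A count of 0 over a group allows up to 3 counts at its depth, and this limit covers counting error alone.

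**Figure D2:**
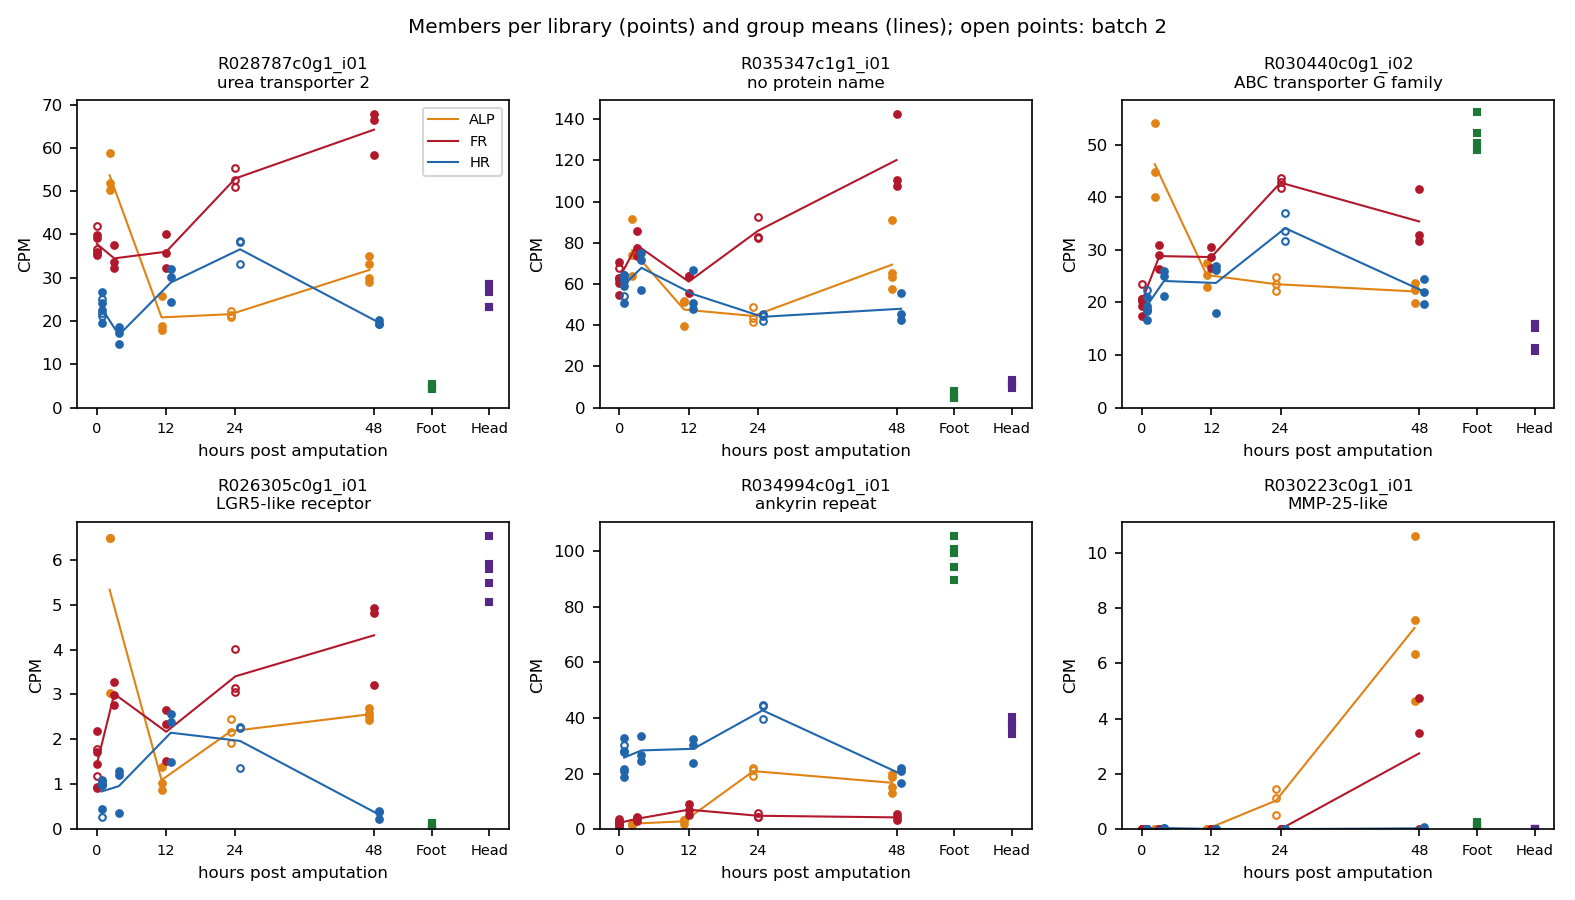
CPM of 6 members in each library (points; open points are batch 2) and the group means (lines) against hours post amputation, for ALP, FR and HR, with Foot and Head at the right. The urea transporter is above 50 CPM in FR at 24 and 48 hpa and under 40 CPM in HR, the ankyrin repeat transcript is lower in FR than in HR at every time, and the metalloproteinase appears at 24 hpa with ALP and at 48 hpa with ALP and in 2 of 3 FR libraries.

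At 24 hpa a part of the members was called higher than at 0 hpa at each wound. In edgeR's quasi-likelihood test with Benjamini-Hochberg adjustment over 17679 transcripts, called at an adjusted p under 0.01, 19 of the 31 members were higher in FR tips at 24 hpa than at 0 hpa of batch 2 and none was lower, where 9.24% of all transcripts were called higher and 9.99% lower. At the oral wound 14 were higher and none lower, where 11.1% were called higher and 9.74% lower. The median log2 fold change over the members was 0.82 at the aboral and 0.71 at the oral wound, beside 0.03 and 0.00 over all transcripts tested. By call, 13 members were higher at both wounds, 6 at the aboral wound and 1 at the oral wound. The share of all transcripts called higher at both wounds was not computed. Independence of these 0 hpa libraries from those of the rule was not settled, so the counts describe the members. The summed CPM of 6 neuropeptide transcripts moved too, to 133 to 137 in FR tips at 24 hpa, against 69.6 to 77.3 at 0 hpa, and to 75.2 to 83.0 in HR tips, against 39.6 to 46.8. Both piwi-like stem cell transcripts were called lower at both wounds, with sums of 805 to 817 CPM in FR tips at 24 hpa, against 1039 to 1161 CPM at 0 hpa, and of 818 to 837 CPM in HR tips, against 1132 to 1198 CPM. Of 11 cell cycle and histone transcripts, 10 were called lower at each wound, and none of 3 gland cell enzymes was called. The part of these markers in the result was not tested.

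The difference of the 24 hpa changes, FR minus HR, was called for none of the 31 members, where 0.537% of all transcripts were called (0.0848% higher and 0.453% lower), and 4 members had an unadjusted p under 0.05. DESeq2 called 1. The closest were 2 isoforms of one locus, R035347c1g1_i01 with a difference of 0.84 ± 0.22 (log2, SE; adjusted p = 0.0352) and R035347c1g1_i03 with 1.11 ± 0.30 (adjusted p = 0.0436). For R035347c1g1_i03 the libraries held 17.2, 18.2 and 19.5 CPM in FR tips at 24 hpa, against 6.39, 8.06 and 9.24 CPM at 0 hpa. In HR tips they held 8.58, 8.87 and 8.98 CPM at 24 hpa, against 8.15, 8.17 and 8.84 CPM. The aboral groups were apart and the oral groups overlapped. RSEM can split reads between such isoforms, and R035347c1g1_i02, another isoform of the locus, averaged 6.39 CPM or less in every group.

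**Figure D3:**
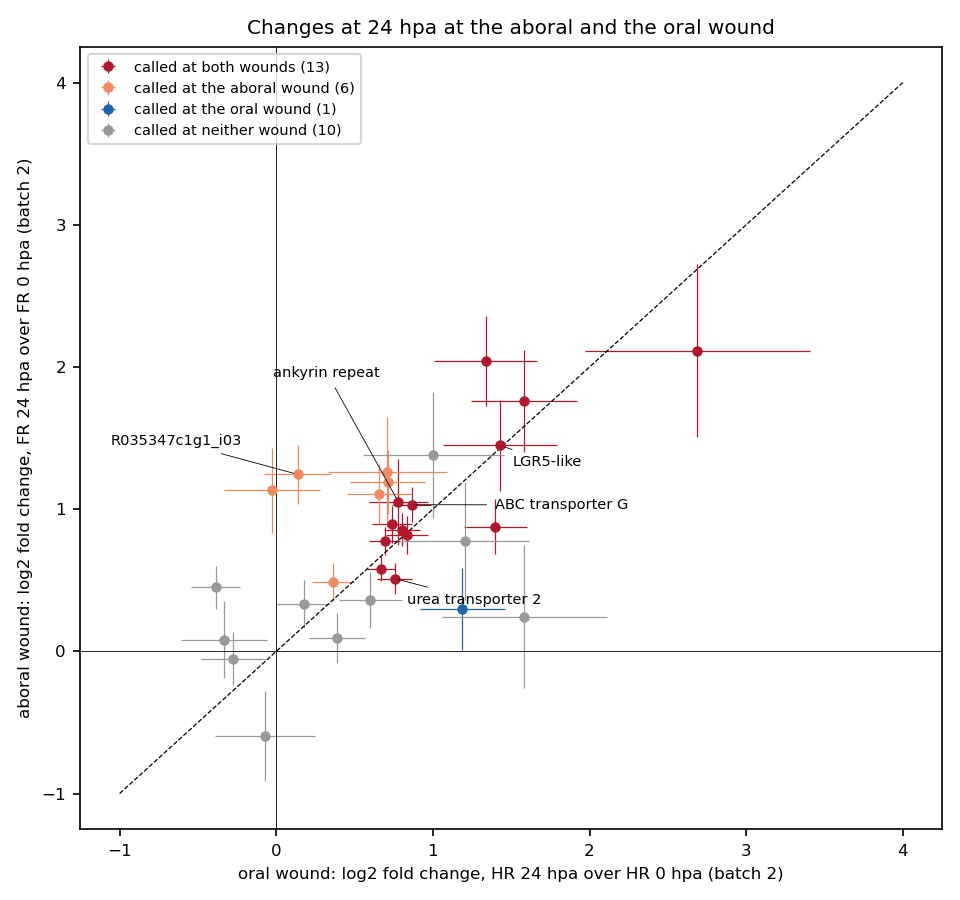
Each point is a member (30 are drawn), with the log2 fold change of FR 24 hpa over FR 0 hpa on the vertical axis and of HR 24 hpa over HR 0 hpa on the horizontal axis, both in batch 2, and bars of 1 SE. The points lie on both sides of the dashed line of equal change, with FR minus HR from -1.34 to 1.16. Of them 13 were called at both wounds, and R035347c1g1_i03 is among those to the left of the line.

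In the fit of all libraries, few members were called between the wounds before 48 hpa. FR tips against HR tips gave 2 members higher and 1 lower at 3 hpa, where 2.85% of all transcripts were called (1.63% higher and 1.22% lower). They gave 3 higher and 1 lower at 12 hpa, where 4.09% were called higher and 4.37% lower (8.46% in all), and 3 higher and 1 lower at 24 hpa, where 1.95% were called higher and 2.51% lower (4.46% in all). Fitted on the 24 hpa FR and HR libraries alone, the last comparison called 10 higher and 3 lower, where 6.68% of transcripts were called higher and 6.13% lower (12.8% in all). The median over the members was 0.17, 0.24 and 0.08 at 3, 12 and 24 hpa, beside -0.01, 0.02 and 0.00 over all transcripts. The summed neuropeptide level was higher in FR tips at 3, 12 and 24 hpa, for example 79.4 to 83.2 CPM at 12 hpa, against 50.7 to 53.4 CPM in HR tips. The sum of the 3 gland enzymes was also higher in FR tips, at 47.4 to 53.7 CPM at 3 hpa, against 31.6 to 37.8 CPM in HR tips, at 42.2 to 47.4 CPM at 12 hpa, against 29.1 to 32.0 CPM, and at 47.9 to 49.3 CPM at 24 hpa, against 28.4 to 32.8 CPM. Neither the piwi-like nor the cell cycle transcripts were called between the wounds at these times, and the part of the markers was not tested.

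The urea transporter was higher in FR tips at 3 hpa, with 32.3, 33.6 and 37.5 CPM, against 14.6, 17.1 and 18.5 CPM in HR tips (log2 fold change 1.01 ± 0.11, adjusted p = 1.74e-09). At 24 hpa FR tips had 51.0, 52.6 and 55.3 CPM, against 33.2, 38.2 and 38.4 CPM in HR tips (0.52 ± 0.11, adjusted p = 0.000332). The groups did not overlap at either time. Against 0 hpa of batch 2 the 24 hpa level was called higher at both wounds. The ratio of the means was 1.39 in FR tips and 1.61 in HR tips, so the oral ratio was the larger. The difference of the changes, FR minus HR, was -0.24 ± 0.15 (log2, SE) and not called. In batch 2 the FR tissue already stood higher at 0 hpa, at 35.9, 36.6 and 42.0 CPM, against 21.2, 21.8 and 25.1 CPM in HR tissue, where 1.76% of all transcripts were called between the cut surfaces and 1 other member, the ankyrin repeat transcript, was called lower.

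The leucine-rich repeat receptor was higher at 3 hpa in FR tips, at 2.76, 2.99 and 3.28 CPM, against 0.361, 1.21 and 1.30 CPM in HR tips (1.67 ± 0.34, adjusted p = 0.000746). This call was lost when only the 2 groups were fitted and without HR replicate 1. At 12 hpa it had 1.51, 2.35 and 2.65 CPM in FR tips, against 1.5, 2.39 and 2.55 CPM in HR tips, so the wounds overlapped by then.

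The ankyrin repeat transcript was lower in FR tips at each time. It had 3.01, 3.82 and 4.27 CPM at 3 hpa, against 24.6, 26.8 and 33.5 CPM in HR tips (-2.95 ± 0.24, adjusted p = 1.85e-12). At 24 hpa it had 4.21, 4.26 and 5.93 CPM, against 39.5, 44.2 and 44.5 CPM in HR tips (-3.14 ± 0.22, adjusted p = 1.51e-14). No other member was called lower at the aboral wound.

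The members called higher at 12 hpa in FR tips were R038541c0g1_i03, R037480c5g5_i02 and R012390c0g1_i01. R038541c0g1_i03 had 151.5, 170.9 and 176 CPM, against 77.7, 140.3 and 141.3 CPM in HR tips (0.51 ± 0.13, adjusted p = 0.00595). R037480c5g5_i02 had 22.8, 24.6 and 26.7 CPM, against 11.7, 20.2 and 22.7 CPM (0.47 ± 0.13, adjusted p = 0.00737). R012390c0g1_i01 had 17.1, 17.6 and 22.8 CPM, against 9.50, 11.7 and 15.5 CPM (0.68 ± 0.19, adjusted p = 0.00874). For R038541c0g1_i03 and R037480c5g5_i02, 1 HR library was far below the other 2. The 4 calls at 12 hpa came to 2 without FR replicate 1, 1 without FR replicate 2 and 2 without HR replicate 4, and the ankyrin repeat transcript alone was called with only these groups fitted.

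At 24 hpa the R035347c1g1 isoforms were higher in FR tips. R035347c1g1_i01 had 82.2, 82.7 and 92.5 CPM, against 42.1, 44.5 and 45.6 CPM in HR tips (0.95 ± 0.15, adjusted p = 1.52e-05), and R035347c1g1_i03 differed by 1.05 ± 0.20 (adjusted p = 0.000245). Both isoforms have fewer counts in uninjured ends than in any tip, R035347c1g1_i01 standing at 4.60 to 7.94 CPM in the foot and 9.57 to 13.3 CPM in the head.

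Between 12 and 3 hpa at the aboral wound no member was called, where 7.72% of all transcripts were called (4.48% higher and 3.24% lower). An unadjusted p under 0.05 was seen for 7 members, and the share of all transcripts was not computed. DESeq2 called 1 member, higher, where it called 875 of 16303 transcripts higher and 688 lower. The largest change was that of R034695c0g1_i02, with 2.40, 2.41 and 2.62 CPM at 12 hpa, against 0.70, 1.14 and 1.41 CPM at 3 hpa (1.27 ± 0.39, adjusted p = 0.0183). Its groups did not overlap.

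With alsterpaullone, members were called higher at 3 hpa and nearly all calls were lower at 24 hpa. At the end of the exposure, at 3 hpa, 7 members were higher in ALP than in FR tips and none was lower, where 6.18% of all transcripts were called higher and 6.75% lower. At 12 hpa none was higher and 5 were lower, where 2.11% of all transcripts were called higher and 1.65% lower (3.76% in all). Leaving out 1 library gave 3 or 4 members at 12 hpa. At 24 hpa 1 was higher and 13 were lower (4.69% called higher and 6.05% lower). The median over the members was 0.09, -0.32 and -0.60 at 3, 12 and 24 hpa, beside -0.02, -0.01 and 0.00 over all transcripts. All 7 members higher at 3 hpa were among the 13 lower at 24 hpa. The share of all transcripts with both calls was not computed. ALP and FR tips of 1 time always carried the same batch label. FR libraries at 24 hpa are also the higher side of the 24 hpa comparisons above, so these results share samples.

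Markers of other cell types were also called. At 3 hpa the gland enzymes summed to 34.8 to 40.8 CPM in ALP tips, against 47.4 to 53.7 CPM in FR tips, and 2 of the 3 were called lower. At 24 hpa 2 of 6 neuropeptide transcripts were called lower and 3 of 11 cell cycle and histone transcripts higher with ALP, and no gland or piwi-like transcript was called. The 6 neuropeptide transcripts then summed to 117 to 128 CPM in ALP tips, against 133 to 137 CPM in FR tips. Those of 3 gland cell enzymes summed to 44.9 to 51.3 CPM, against 47.9 to 49.3 CPM, and 2 piwi-like stem cell transcripts to 802 to 882 CPM, against 805 to 817 CPM. At 12 hpa the neuropeptides were higher with ALP, at 88.7 to 147 CPM, against 79.4 to 83.2 CPM, with 4 of 6 called higher, and the gland enzymes stood at 49.1 to 61.2 CPM, against 42.2 to 47.4 CPM, with 1 of 3 called higher. The part of these markers in the results was not tested.

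**Figure D4:**
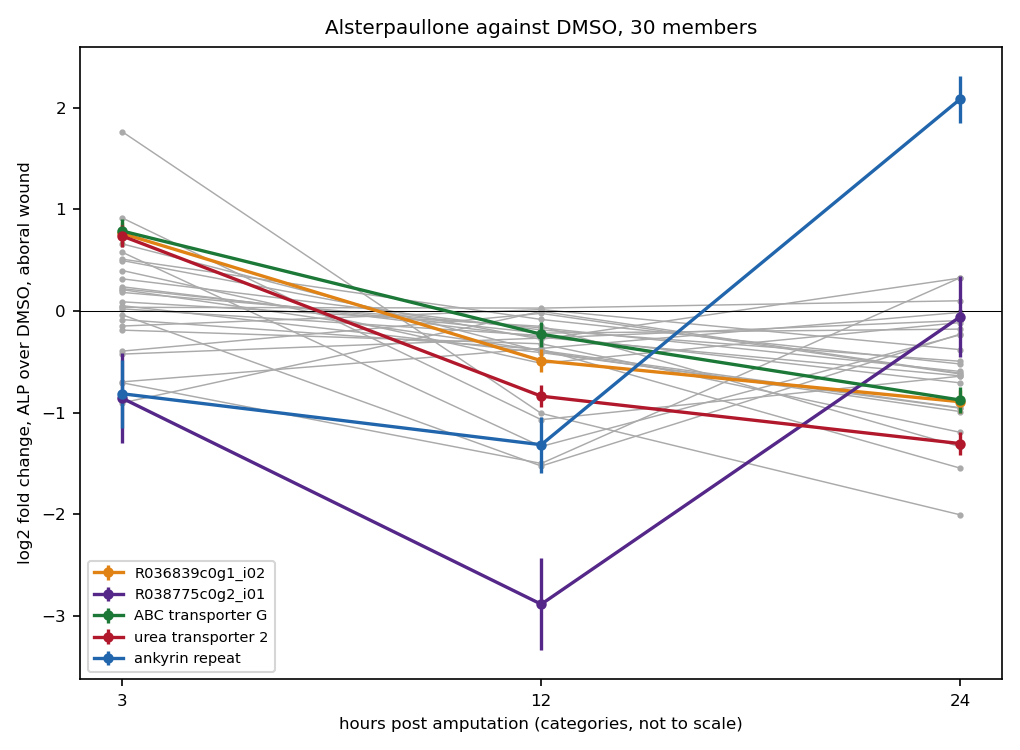
Log2 fold change of ALP over DMSO at the aboral wound at 3, 12 and 24 hpa for 30 members (lines; the metalloproteinase, at 0 counts in FR, is left out). Coloured lines with bars of 1 SE show 5 members: the urea transporter is at 0.74 at 3 hpa and -1.31 at 24 hpa, and the ankyrin repeat transcript is at 2.09 at 24 hpa.

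The urea transporter was among the 7 members higher with ALP at 3 hpa and lower at 24 hpa. It was also called lower at 12 hpa. It had 50.2, 51.9 and 58.9 CPM in ALP tips at 3 hpa, against 32.3, 33.6 and 37.5 CPM in FR tips (0.74 ± 0.11, adjusted p = 6.12e-07). At 12 hpa it had 17.9, 18.9 and 25.8 CPM, against 32.3, 35.7 and 40.1 CPM (-0.84 ± 0.11, adjusted p = 1.66e-07). At 24 hpa it had 21.0, 21.4 and 22.4 CPM, against 51.0, 52.6 and 55.3 CPM (-1.31 ± 0.11, adjusted p = 9.43e-14). ALP tips were above every FR tip of the same hour at 3 hpa, and below every one at 12 and 24 hpa.

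The ABC transporter had 39.99, 44.8 and 54.1 CPM in ALP tips at 3 hpa, against 26.5, 29.1 and 30.9 CPM in FR tips (0.79 ± 0.12, adjusted p = 3.24e-06). At 24 hpa it had 22.1, 23.5 and 24.8 CPM, against 41.8, 43.0 and 43.6 CPM (-0.88 ± 0.12, adjusted p = 3.33e-07). The groups were apart at both times. At 12 hpa the difference was -0.23 and not called.

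R036839c0g1_i02 had 73.6, 82.7 and 86.4 CPM in ALP tips at 3 hpa, against 48.5, 50.6 and 54.3 CPM in FR tips (0.76 ± 0.11, adjusted p = 1.52e-06). It had 35.5, 36.1 and 37.3 CPM at 24 hpa, against 66.2, 67.0 and 67.7 CPM (-0.89 ± 0.12, adjusted p = 5.26e-08). At 12 hpa it had 33.9, 37.9 and 40.6 CPM, against 49.1, 51.2 and 52.2 CPM (-0.49 ± 0.12, adjusted p = 0.00378), a call lost without any 1 of 5 of the 6 libraries. The 24 hpa level in ALP tips was close to that of the 0 hpa tissue of batch 2, at 36.2 to 40.7 CPM.

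R038541c0g1_i03 had 214.3, 232.7 and 237.7 CPM in ALP tips at 3 hpa, against 141.4, 152.5 and 170.6 CPM in FR tips (0.66 ± 0.13, adjusted p = 0.000215). At 24 hpa it had 92.5, 93.3 and 95.5 CPM, against 181.4, 186.6 and 187.1 CPM (-0.99 ± 0.13, adjusted p = 2.36e-07). R034695c0g1_i02 had 3.31, 3.44 and 3.57 CPM at 3 hpa, against 0.70, 1.14 and 1.41 CPM (1.76 ± 0.38, adjusted p = 0.000354), and 0.818, 0.993 and 1.11 CPM at 24 hpa, against 2.93, 4.02 and 4.87 CPM (-2.01 ± 0.37, adjusted p = 4.73e-05). Both transcripts were apart between ALP and FR tips at both times.

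The other 2 of the 7 were R034683c0g1_i02 and R035902c0g1_i05, which moved by less. R034683c0g1_i02 had 29.5, 30.4 and 33.4 CPM in ALP tips at 3 hpa, against 21.6, 23.1 and 25.6 CPM in FR tips, and 17.8, 18.8 and 20.9 CPM at 24 hpa, against 26.8, 27.3 and 27.8 CPM. R035902c0g1_i05 had 49.4, 50.1 and 51.0 CPM at 3 hpa, against 41.3, 43.9 and 44.5 CPM, and 28.8, 29.1 and 30.6 CPM at 24 hpa, against 40.9, 41.4 and 41.5 CPM. For R035902c0g1_i05 the change at 3 hpa was 0.32 ± 0.09 (adjusted p = 0.00602), and leaving out any of the 6 libraries lost that call.

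The members lower at 24 hpa and not called at 3 hpa were R035347c1g1_i01, R035347c1g1_i03, R012390c0g1_i01, R031380c0g1_i01, R037480c5g5_i02 and R033771c0g2_i01. R035347c1g1_i01 had 41.4, 43.3 and 48.8 CPM in ALP tips at 24 hpa, against 82.2, 82.7 and 92.5 CPM in FR tips (-0.96 ± 0.15, adjusted p = 7.7e-06). R035347c1g1_i03 had 6.59, 6.92 and 8.43 CPM, against 17.2, 18.2 and 19.5 CPM (-1.34 ± 0.21, adjusted p = 3.25e-06). ALP and FR tips were apart for both isoforms. R012390c0g1_i01 had 3.93, 5.02 and 5.22 CPM, against 12.5, 13.7 and 14.9 CPM (-1.55 ± 0.21, adjusted p = 2.15e-07). For R012390c0g1_i01 these ALP tips also lay below every FR tip of the other times.

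R031380c0g1_i01 had 1.64, 2.05 and 3.53 CPM in ALP tips at 24 hpa, against 4.63, 5.51 and 6.24 CPM in FR tips (-1.19 ± 0.23, adjusted p = 6.4e-05). R037480c5g5_i02 had 13.95, 14.1 and 16.3 CPM, against 26.8, 27.6 and 30.8 CPM (-0.95 ± 0.13, adjusted p = 1.12e-07), and R033771c0g2_i01 had 21.2, 22.8 and 23.3 CPM, against 31.9, 34.2 and 34.7 CPM (-0.60 ± 0.13, adjusted p = 0.00076). Over the members, all ALP libraries lay below all FR libraries at 24 hpa for 19 and above them for 4. The share of all transcripts so separated was not computed, so nothing is read from these 2 counts about the members.

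The change of the ALP effect with time, the 24 hpa effect minus the 3 hpa effect, was tested after these values were seen. It was called for 14 members, 13 of them lower at 24 hpa, where 8.5% of all transcripts were called lower and 7.17% higher (15.7% in all). The difference was -2.04 ± 0.15 for the urea transporter (adjusted p = 1.66e-15), -1.66 ± 0.17 for the ABC transporter (adjusted p = 1.09e-10) and -3.77 ± 0.53 for R034695c0g1_i02 (adjusted p = 1.23e-07).

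The leucine-rich repeat receptor had 3.03, 6.48 and 6.49 CPM in ALP tips at 3 hpa, against 2.76, 2.99 and 3.28 CPM in FR tips (0.92 ± 0.28, adjusted p = 0.0136, not called). It was not called at 12 or 24 hpa either, at -1.07 ± 0.33 and -0.64. The difference of its effects at 24 and 3 hpa was -1.56 ± 0.41 (adjusted p = 0.00307), which was lost in 5 of the leave-one-out fits.

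The ankyrin repeat transcript was the only member called higher with ALP at 24 hpa, after a call of lower at 12 hpa. It had 1.96, 3.14 and 3.29 CPM in ALP tips at 12 hpa, against 4.97, 6.84 and 9.14 CPM in FR tips (-1.32 ± 0.28, adjusted p = 0.0013). The 12 hpa call was lost when either FR replicate 4 or ALP replicate 3 was left out. At 24 hpa the transcript had 19.3, 21.2 and 22.1 CPM, against 4.21, 4.26 and 5.93 CPM (2.09 ± 0.23, adjusted p = 2.04e-09). At 48 hpa the ALP tips had 13.1 to 19.9 CPM, all above the 3.10 to 5.36 CPM of the FR tips. Of the 8 foot genes named by the study, 7 were called higher with ALP at 24 hpa and none lower.

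The remaining members lower at 12 hpa were R038775c0g2_i01 and R038546c0g1_i01. R038775c0g2_i01 had 1.72, 2.96 and 4.61 CPM in ALP tips, against 18.9, 22.8 and 24.1 CPM in FR tips (-2.89 ± 0.45, adjusted p = 1.82e-05). It shares its locus with an isoform, R038775c0g2_i03, that averaged 182 CPM in ALP and 146 CPM in FR tips at 12 hpa, so the split of reads between the 2 is uncertain. R038546c0g1_i01 had 1.45, 1.96 and 2.91 CPM, against 2.78, 5.50 and 9.69 CPM (-1.50 ± 0.31, adjusted p = 0.000751), and the groups overlapped.

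The metalloproteinase had 9 to 25 counts in each ALP library at 24 hpa, 52 in all, and none in FR tips. Against a level of 3 counts over the FR group the pooled ALP level was at least 20.8-fold higher, and the test did not call it (adjusted p = 0.0161). At 48 hpa all 4 ALP libraries held it, at 4.64, 6.32, 7.55 and 10.6 CPM. No count was seen in ALP tips at 3 or 12 hpa, and the pooled level at 48 hpa was at least 148.5-fold higher than 3 counts over the 12 hpa group (adjusted p = 8.01e-05).

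In ALP tips, 48 against 12 hpa gave 7 members higher and none lower, where 6.69% of all transcripts were called higher and 5.3% lower. Besides the metalloproteinase these were the ankyrin repeat transcript (2.62 ± 0.24, adjusted p = 2.23e-11), R038775c0g2_i01 (2.31 ± 0.44, adjusted p = 0.000142), R038546c0g1_i01 (2.29 ± 0.28, adjusted p = 1.69e-08), the leucine-rich repeat receptor (1.26 ± 0.31, adjusted p = 0.00225), the urea transporter (0.65 ± 0.11, adjusted p = 4.7e-06) and R035347c1g1_i01 (0.59 ± 0.14, adjusted p = 0.00243). The urea transporter reached 29.1 to 34.9 CPM in ALP tips at 48 hpa, against 17.9 to 25.8 CPM at 12 hpa. The median over the members was 0.08, beside 0.00 over all transcripts. Both piwi-like transcripts were called higher in the same comparison, with sums of 1185 to 1232 CPM at 48 hpa, against 893 to 954 CPM at 12 hpa. Of the other markers, 4 of 11 cell cycle and histone transcripts were called higher, 3 of 6 neuropeptide transcripts lower and 1 higher, and 2 of 3 gland enzymes lower, and their part was not tested.

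At 48 hpa the ALP tips held 0.290 to 3.96 times the FR level, with a median of 0.592 over the 31 members, as a description because the FR values chose the members. The ALP mean was below the FR mean for 28 members. All ALP libraries lay below all FR libraries for 21, and all lay above for the ankyrin repeat transcript. The share of all transcripts so separated was not computed. For the urea transporter the values were 29.1, 29.9, 33.2 and 34.9 CPM in ALP tips, against 58.4, 66.4 and 67.8 CPM in FR tips.

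For most members the uninjured ends held less than the FR tips at 48 hpa, as a description because these libraries chose the members. Every Foot library lay below every FR library for 22 members and above for 3. Every Head library lay below for 23 and above for 2. The share of all transcripts so separated was not computed. The 3 higher in the foot were R036839c0g1_i02, the ABC transporter and the ankyrin repeat transcript, and the 2 higher in the head were the leucine-rich repeat receptor and the ankyrin repeat transcript. R034695c0g1_i02 was almost absent from both ends, with at most 0.0999 CPM in the foot and 0.226 CPM in the head. At 48 hpa the neuropeptide sum was 117 to 132 CPM in FR and 187 to 226 CPM in HR tips, and the gland enzyme sum 36.5 to 48.0 CPM in FR and 63.8 to 82.0 CPM in HR tips. Their part was not tested.

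The called members that reached a test only through the 0 hpa comparisons were few. R032819c0g1_i02 had 10.1, 10.4 and 11.6 CPM in FR tips at 24 hpa, against 1.87, 3.03 and 3.25 CPM at 0 hpa, and 5.55, 5.72 and 6.92 CPM in HR tips, against 1.61, 2.78 and 3.34 CPM. R036847c1g1_i01 had 5.54, 5.63 and 7.18 CPM in FR tips at 24 hpa, against 3.14, 3.38 and 3.68 CPM, and 5.10, 6.02 and 6.74 CPM in HR tips, against 2.30, 2.38 and 2.42 CPM. Both wounds of these 2 transcripts were apart from their 0 hpa tissue. R037855c0g2_i01, at 0.619, 0.87 and 1.01 CPM in FR tips, against 0.127, 0.216 and 0.265 CPM at 0 hpa, was also called at 24 hpa. R037948c1g1_i01, R034732c0g1_i02 and R037069c2g2_i01 were called in FR tips alone. These 3 calls were lost in 1, 11 and 4 alternative settings, in that order. For R037855c0g2_i01 the FR call was lost in 7 settings and the HR call in 4. R037069c2g2_i01 shares its assembly component with R037069c2g1_i01, another member, which was called in none. The other 6 members called in none of the 12 comparisons fixed for all members were R030174c0g1_i02, R034739c0g1_i01, R036843c0g2_i02, R038858c3g2_i02, R040077c0g3_i04 and R058536c0g1_i01.

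Lists of genes that contain members, chosen with earlier results known, had calls in both directions. Of 19 transcripts of Wnt ligands, receptors and modulators, 2 were higher and 2 lower with ALP at 24 hpa, and none was higher and 5 lower in FR than in HR tips at 24 hpa. Over all transcripts 4.69% were called higher and 6.05% lower with ALP at 24 hpa, and 1.95% higher and 2.51% lower in FR than in HR tips. Of 34 metalloproteinases, which include the matrix metalloproteinase-25 transcript, 2 were higher and 4 lower with ALP at 24 hpa, and 8 higher and 4 lower in FR than in HR tips. Of 86 solute carriers and transporters, 6 were higher and 11 lower with ALP at 24 hpa, the 2 transporter members being among the lower ones, and at 3 hpa 7 were higher and 15 lower, where both members were among the higher ones. The medians of the first and second list in ALP against FR tips at 24 hpa were -0.01 and 0.06 on the log2 scale.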

How the data were processed

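Poly(A) RNA-seq of 61 libraries was analysed. According to the submitters' processing notes the authors trimmed reads with Trimmomatic 0.39 (the Methods name another version) and used Bowtie2 and RSEM, on a reduced *H. oligactis* transcriptome, and deposited expected counts per transcript and FPKM values. Of the expected counts, 5.33% were not whole, and all were rounded. Of the FPKM columns, 35 entered an alternative and 4 were left out because they outnumber the 3 samples of their group. For 30 libraries the single sample is known from the labels, and for the others the group alone.

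CPM was computed from column totals. All 61 libraries were fitted together in edgeR 4.0.16 (R 4.3.3) with a quasi-likelihood model, TMM scaling and 1 term for each of 18 groups (0 hpa split by batch), after filterByExpr with a minimum count of 10 and a minimum total of 15, which kept 17679 transcripts, all 31 members included. Calls used an adjusted p under 0.01 (Benjamini-Hochberg), and tests were 2-sided. The code was tested on simulated data with 200 changed transcripts. Alternatives were an adjusted p under 0.05, glmTreat at a fold of 1.2, DESeq2 1.42.0 and its size factors, no filter, only the groups compared, FPKM with limma 3.58.1 on log2(FPKM + 0.1) or log2(FPKM + 1), a replicate block and leaving out each library.

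The members and the 18 gene lists were chosen with earlier results of these data known. Values in every library are given for up to 20 members, taken by the number of comparisons called and then by mean CPM in FR at 48 hpa, from members with a protein name and at least 5 CPM in FR at 48 hpa, those called in FR at 24 against 0 hpa, in the difference of the 24 hpa changes or in an ALP comparison, and the 8 with the largest 48 hpa rise. The metalloproteinase was eligible but ranked below these 20, and its values were added after they were seen. Values within a group are sorted, and replicate numbers are those of the columns.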

Additional observations from a re-analysis of the deposited data

Results flagged for a closer look

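For 14 members the effect of alsterpaullone on the aboral tip differed between 24 and 3 hpa in the edgeR quasi-likelihood model (adjusted p under 0.01), a comparison chosen after the values were seen. The difference, 24 hpa effect minus 3 hpa effect on the log2 scale, was negative for 13. It was -3.77 for R034695c0g1_i02, -2.043 for the urea transporter R028787c0g1_i01, -1.664 for the ABC transporter R030440c0g1_i02, -1.656 for R036839c0g1_i02 and -1.65 for R038541c0g1_i03. It was -1.557 for the leucine-rich repeat receptor R026305c0g1_i01, -1.462 for R012390c0g1_i01, -1.426 for R035347c1g1_i03, -1.162 for R037480c5g5_i02 and -1.032 for R034683c0g1_i02. It was -1.008 for R035347c1g1_i01, -0.811 for R035902c0g1_i05 and -0.7779 for R033771c0g2_i01. The ankyrin repeat transcript R034994c0g1_i01 alone had a positive difference, 2.9, made of 2.09 at 24 hpa and -0.81 at 3 hpa. The libraries at 3 hpa are all labelled batch 1 and those at 24 hpa all batch 2, while each effect was taken within 1 batch.

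In 5 of 100 groups of 4 to 7 libraries checked, 1 library stood apart from the rest by Dixon's 95% criterion. By its construction this criterion marks about 1 group in 20 by chance. R035902c0g1_i05 reached 36.88 CPM in 1 Head library, where the other 4 had 29.2 to 30.1 CPM. R034683c0g1_i02 had 28.15 CPM in 1 Foot library, against 30.1 to 30.8 CPM in the others. R034695c0g1_i02 had 0.2262 CPM in 1 Head library, against 0 to 0.0638 CPM. R035347c1g1_i03 had 17.88 CPM in ALP library 1 at 48 hpa, against 11.7 to 12.7 CPM, and R037855c0g2_i01 had 0.581 CPM in HR replicate 4 at 0 hpa, against 0.0441 to 0.153 CPM in the other 6.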

How the results depend on the processing

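Of 1375 alternative values of 93 called member results, 1255 stayed called in the same direction, 120 were no longer called and 0 reversed. Of 206 alternative counts, 179 stayed within 1.5 times the count given. The difference of the 24 hpa changes, FR minus HR, gave 2 members at an adjusted p under 0.05, 1 with DESeq2, 2 with only the groups compared, 2 with all 7 libraries at 0 hpa and 1 with limma on log2(FPKM + 0.1) or on log2(FPKM + 1). At an adjusted p under 0.05, FR against HR gave 5 members at 3 hpa, where 475 of 17679 transcripts were called higher and 384 lower. It gave 7 members at 24 hpa, where 580 were called higher and 669 lower. For 12 against 3 hpa 4 members were called (2 higher and 2 lower), where 1471 transcripts were called higher and 1151 lower. With glmTreat at a fold of 1.2, FR against HR at 12 hpa gave 1 and ALP against FR at 3 hpa gave 4. With only the groups compared, FR against HR gave 13 members (24 hpa), 1 (12 hpa) and 1 (0 hpa), and FR at 12 against 3 hpa gave 2. DESeq2 gave 1 for FR at 12 against 3 hpa. The cause was not tested. Fits of only the groups compared also rest on fewer samples. Where an alternative count stands without the number of all transcripts called, nothing is read from it about the members.

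Replicate numbers did not pair the libraries at 24 hpa, where same-numbered libraries correlated at -0.0281 to 0.0805 in their deviations from the group means. A replicate block gave 11 members for FR against HR at 24 hpa (8 higher and 3 lower), where 842 of 15730 transcripts were called higher and 787 lower. It gave 1 member at 0 hpa. For ALP at 48 against 12 hpa it gave 10 (8 higher and 2 lower), where 927 of 15924 transcripts were called higher and 1255 lower. There it lost the urea transporter's call (adjusted p = 0.0104). No paired analysis was possible for the other groups because their columns carry numbers that do not match the sample titles.

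Leaving out each library in turn gave 13 to 17 members for FR at 24 against 0 hpa, 11 to 14 for HR, 0 to 0 for their difference, and, for FR against HR, 3 to 3 (3 hpa), 1 to 4 (12 hpa), 4 to 4 (24 hpa) and 2 to 3 (0 hpa). It gave 0 to 1 for FR at 12 against 3 hpa (1 without FR replicate 1 or 4 at 12 hpa), 6 to 7 for ALP against FR at 3 hpa, 3 to 4 at 12 hpa (3 without FR replicate 4, ALP replicate 2 or ALP replicate 3), 14 to 14 at 24 hpa, 6 to 8 for ALP at 48 against 12 hpa and 13 to 15 for the change of the ALP effect. Membership ran from 28 to 47, with 47 without FR replicate 4 at 0 hpa, 27 with all 7 libraries at 0 hpa, 38 with TMM library sizes and 42 with the 0 hpa libraries of batch 2. At these depths 1 CPM stands for 14.55 to 26.11 counts, which limits the precision of members near that level.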
